A study of Mus musculus with 8 samples.

Results

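A set of 44 genes of the Wnt pathway was followed in 8 wild-type mouse embryos, and they were chosen by name rather than by any measured value. They are 19 Wnt ligands, 10 Frizzled receptors, the co-receptors Lrp5 and Lrp6, 10 secreted antagonists (the Sfrp family with Frzb, the Dkk family and Wif1) and 3 genes that respond to or carry the nuclear signal (Axin2, Lef1 and Tcf7). All 44 genes were represented on the array by 54 of its 55681 probes, among 20660 genes whose probes could be named, since 10 genes had 2 probes each. Where a gene had 2 probes, the one with the brighter mean signal stands for it unless the other is mentioned.

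Embryos of day 8.5 after plugging came from wild-type mothers, given as c57bl/6J in the study's supplement. The labels give the strain and background of the samples as Eedl7Rn5-1989SB C57bl6/129, without naming the mothers. Every embryo was itself wild type at Eed, so the groups differed in the father's genotype. Of the 8 embryos, 4 were sired by wild-type males (Eed wt/wt) and 4 by heterozygous males (Eed hypo/wt) that carried 1 copy of l7Rn5-1989SB, a hypomorphic point-mutant allele of Eed, a core subunit of the Polycomb repressive complex PRC2. Each group held 2 female and 2 male embryos: embryos 1 and 3 of wild-type fathers and embryos 2 and 4 of heterozygous fathers were female. By their codes 3 of the 4 embryos of wild-type fathers may share a sire. The paper's breeding plan lists 2 wild-type males, and on that count some of these 4 embryos share a sire. A legend in its supplement gives 4 for each genotype, which may count males or offspring. The groups lay on different slides, and effects of slide and of father cannot be told apart. RNA of each whole embryo was hybridised to a one-colour Agilent array, and signals are given as log2 of the processed intensity after subtracting the 75th percentile of the array, so that 0 is the signal of a probe at that percentile. In such bulk samples, fewer cells of a type and less RNA per cell cannot be told apart.

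Wnt proteins are secreted, lipid-modified ligands that bind Frizzled receptors. Together with Lrp5 or Lrp6 they stop the Axin-containing complex from degrading beta-catenin, which then enters the nucleus and acts with factors of the TCF and LEF family. Sfrp proteins, Frzb and Wif1 bind the ligands, while the classical Dkk proteins bind the Lrp co-receptors, and Axin2 and Dkk1 are textbook targets that feed back on the pathway. In the embryo at this stage Wnt signals are known for sustaining the growing tail end, patterning the dorsal neural tube and the midbrain, and guiding heart formation.

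The DNA upstream of 30 of the 44 genes was at hand, in 37 windows of 250 bases that end at an annotated RefSeq start site (GRCm38.p6). The letters read by TCF and LEF factors were searched as CTTTGAA and CTTTGAT on both strands, and they occurred in 3 of the 37 windows (8.11%), against 7.48% of 32851 such windows of all genes. The windows holding them belong to Wnt5b, Wnt11 and the antagonist Dkk1. The Dkk1 and Wnt11 windows are shown because they carry the letters upstream of a start site of a ligand and of a feedback antagonist, and the Axin2 window because it belongs to the gene most used to read the pathway and held neither motif. Capitals mark the TCF and LEF letters in the first pair (in Wnt11 on the opposite strand, so that they read ATCAAAG) and each CG dinucleotide in Axin2.
Dkk1 (chr19:30549497-30549746, minus strand): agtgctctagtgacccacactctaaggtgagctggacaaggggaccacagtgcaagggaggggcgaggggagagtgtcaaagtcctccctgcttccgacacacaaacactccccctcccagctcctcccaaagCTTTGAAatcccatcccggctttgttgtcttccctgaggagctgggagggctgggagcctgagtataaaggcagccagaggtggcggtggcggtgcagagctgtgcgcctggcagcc
Wnt11 (chr7:98834862-98835111, plus strand): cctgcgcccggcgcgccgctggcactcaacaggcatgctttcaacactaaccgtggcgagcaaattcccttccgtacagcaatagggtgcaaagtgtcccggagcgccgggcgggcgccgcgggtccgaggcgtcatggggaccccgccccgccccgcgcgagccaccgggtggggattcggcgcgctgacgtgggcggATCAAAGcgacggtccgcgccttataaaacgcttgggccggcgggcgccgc
Axin2 (chr11:108920099-108920348, plus strand): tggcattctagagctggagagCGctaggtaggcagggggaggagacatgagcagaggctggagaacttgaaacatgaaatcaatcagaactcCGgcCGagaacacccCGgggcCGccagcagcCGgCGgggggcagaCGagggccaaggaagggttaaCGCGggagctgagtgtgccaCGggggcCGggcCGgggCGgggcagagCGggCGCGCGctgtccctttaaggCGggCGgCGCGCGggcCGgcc
The motif began 117 bases before the Dkk1 start and 51 bases before the Wnt11 start of the window shown. In Wnt5b, not shown, it began 71 bases before the start. Wnt11 and Wnt5b also had windows at other start sites, which held neither motif. The Axin2 window held 24 CG dinucleotides and had a GC content of 69.2%. The windows of the 30 genes were GC-rich as a group, with a median GC content of 66.4% (range 44.8 to 87.6%) and a median of 20 CG dinucleotides, against 52.4% and 6 over all windows. A match is a description of these letters and not a binding site.

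Of the 44 genes, 38 were well above background on all 8 arrays: 15 of the 19 ligands, every Frizzled receptor, both co-receptors, 8 of the 10 antagonists, and Axin2, Lef1 and Tcf7. Wnt2b was not well above background on any array. Wnt16 and Sfrp4 were well above background on 7 arrays, Wnt3a on 6, Dkk4 on 5 and Wnt10b on 4. For Wnt3a, the ligand that maintains the tail bud, the 6 arrays were 4 of 4 with wild-type fathers and 2 of 4 with heterozygous fathers. For Dkk4 they were 4 and 1, and for Wnt10b 3 and 1. The arrays themselves differed near the floor. The median log2 signal of negative control spots, before the shift, was 2.08 to 2.31 with wild-type fathers. With heterozygous fathers it was 2.50 to 3.17, higher on every array. The part of this floor in the detection counts was not tested. Between 29204 and 39545 probes were well above background on an array. The embryos with the most (wild-type father 1 and heterozygous father 3) also had 472 and 540 of 1450 odorant and vomeronasal receptor probes above background, against 52 to 184 in the other embryos. Wnt10b and Dkk4 were brightest in these 2 embryos (-3.70 and -3.52 for Wnt10b, -4.46 and -2.99 for Dkk4), and the part of those arrays in their levels was not tested. The tissue of the label was borne out by its markers, since all 12 genes taken as markers of the embryo proper, all 8 of the tail bud and all 7 of the dorsal neural tube were well above background on all arrays. So were all 8 markers of yolk sac endoderm and all 6 of primitive red cells, so the signals are not those of the embryo proper alone.

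**Figure D1:**
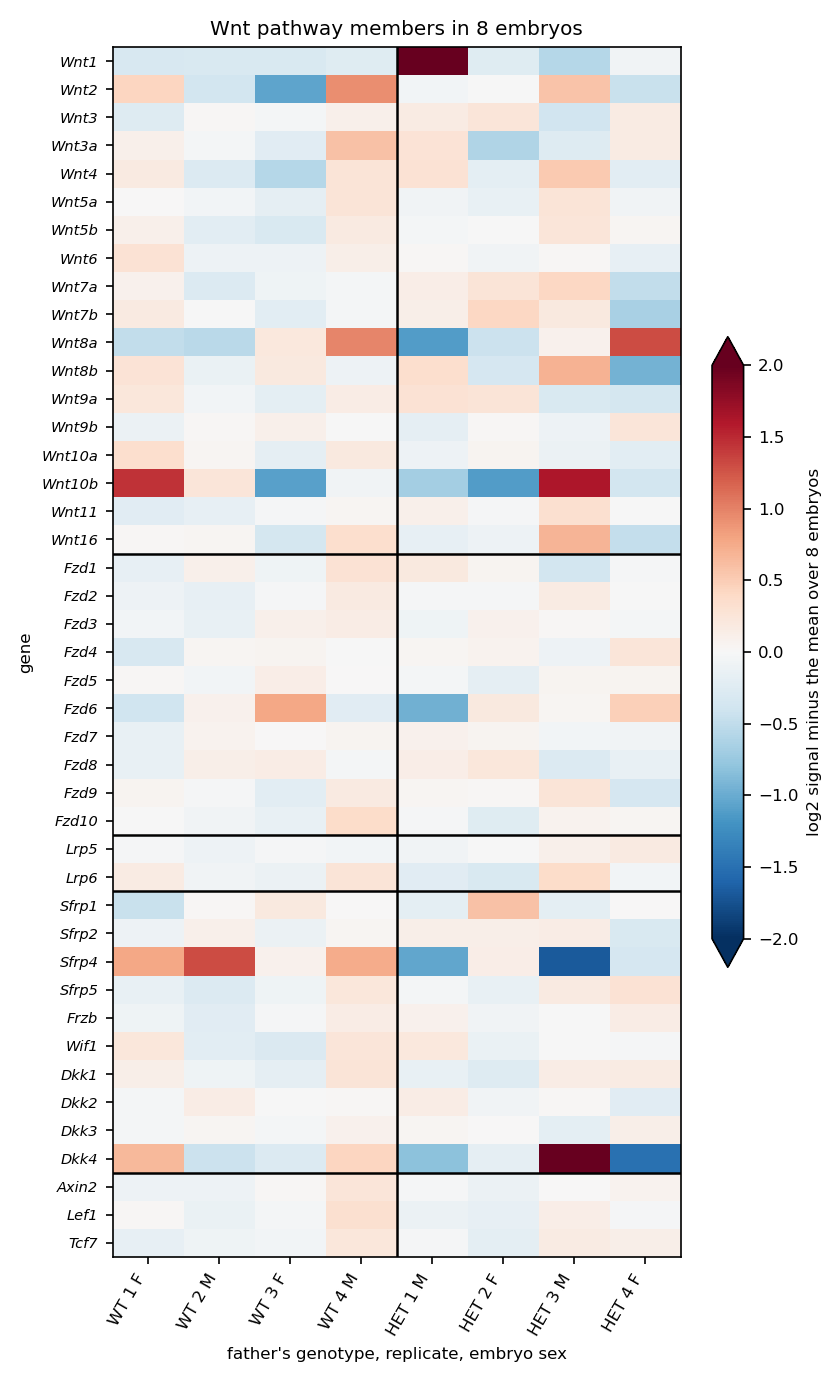
Log2 signal of the 43 genes tested in each embryo (columns, with father's genotype, replicate number and sex) as the difference from the gene's mean over 8 embryos, red above and blue below, with lines between the gene classes and between the groups. Strong colour sits in single cells, such as Wnt1 in heterozygous father 1 (2.05 log2 units above its mean), rather than in whole columns of either group, and Sfrp4 is the row that differs most between the groups.

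Between fathers, none of the pathway genes passed the threshold. In all, 43 genes were tested, Wnt2b being too dim, and 0 were called at an adjusted p under 0.01 and a change of at least 2-fold (limma, Benjamini-Hochberg adjustment), as were 0.0% of all 33096 probes tested. Only 1 gene, Sfrp4, had an unadjusted p under 0.05, against 4.34% of all probes, and the groups overlapped at all 43 genes, where 3.15% of all probes had groups that did not overlap. The smallest adjusted p of the 43 genes was 1 after rounding. With heterozygous fathers 18 genes were higher and 25 lower, a split that was 9 and 34 with arrays aligned on medians, 13 and 30 with quantile normalization, and 29 and 13 (of 42) without wild-type father 4. The median log2 fold change was -0.016, beside -0.00235 over all probes tested. The median size of the change, regardless of direction, was 0.08 in log2 units for the pathway and 0.10 for all probes. For 37 of the 43 genes the 95% interval of the difference lay within 2-fold in both directions, and for 30 genes within 1.5-fold. The 6 genes with wider intervals were Wnt1, Wnt2, Wnt8a, Wnt10b, Sfrp4 and Dkk4.

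Among the ligands, 8 were higher and 10 lower with heterozygous fathers, with log2 fold changes between -0.27 for Wnt10b and 0.59 for Wnt1. Wnt5a, which directs tissue elongation, measured 2.05, 1.99, 1.86 and 2.30 with wild-type fathers and 1.97, 1.89, 2.30 and 1.97 with heterozygous fathers. Its groups lay over each other, with a log2 fold change of -0.016 (95% interval -0.31 to 0.28). Its close relative Wnt5b differed by 0.12 (-0.19 to 0.43) and Wnt6 by -0.10 (-0.35 to 0.15). The ligand with the smallest unadjusted p was Wnt11, which acts in heart and axis morphogenesis (log2 fold change 0.19, standard error 0.10, unadjusted p = 0.104, adjusted p = 1, limma). Wnt11 measured -1.36, -1.30, -1.17 and -1.10 with wild-type fathers and -1.04, -1.16, -0.82 and -1.15 with heterozygous fathers. The groups overlapped through wild-type father 4 alone.

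On the probe that stands for each gene, the Frizzled receptors varied little between fathers. All 10 intervals between fathers lay within 2-fold and 9 of them within 1.5-fold, and the log2 fold changes ran from -0.12 to 0.12. The second Fzd2 probe was less bounded, with 0.54 (interval -0.72 to 1.79). The second probes of Fzd5 and Fzd7 gave 0.24 (-0.32 to 0.80) and 0.18 (-0.11 to 0.47). Fzd7 had the smallest spread of any of the 38 genes detected on all arrays (SD 0.08 over 8 embryos), with signals of 1.61 to 1.83. Fzd5, Lrp5 and Dkk3 followed with SDs of 0.09, 0.09 and 0.10. Fzd6, a receptor of planar polarity signalling, had the largest SD of the receptors, 0.54. It measured -2.11, -1.62, -0.93 and -1.93 with wild-type fathers and -2.67, -1.505, -1.67 and -1.22 with heterozygous fathers, so its extremes lay in opposite groups and the difference was -0.12 (standard error 0.37, unadjusted p = 0.756, adjusted p = 1, limma). The co-receptors differed by 0.10 (Lrp5, interval -0.07 to 0.28) and -0.11 (Lrp6, interval -0.50 to 0.28). The second Lrp6 probe, of the same mean change (-0.11), varied less, with an SD of 0.07 against 0.24, and its groups did not overlap, all 4 embryos of heterozygous fathers being lower (-1.25 to -1.18 against -1.15 to -1.05, unadjusted p = 0.0947, adjusted p = 1, limma).

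**Figure D2:**
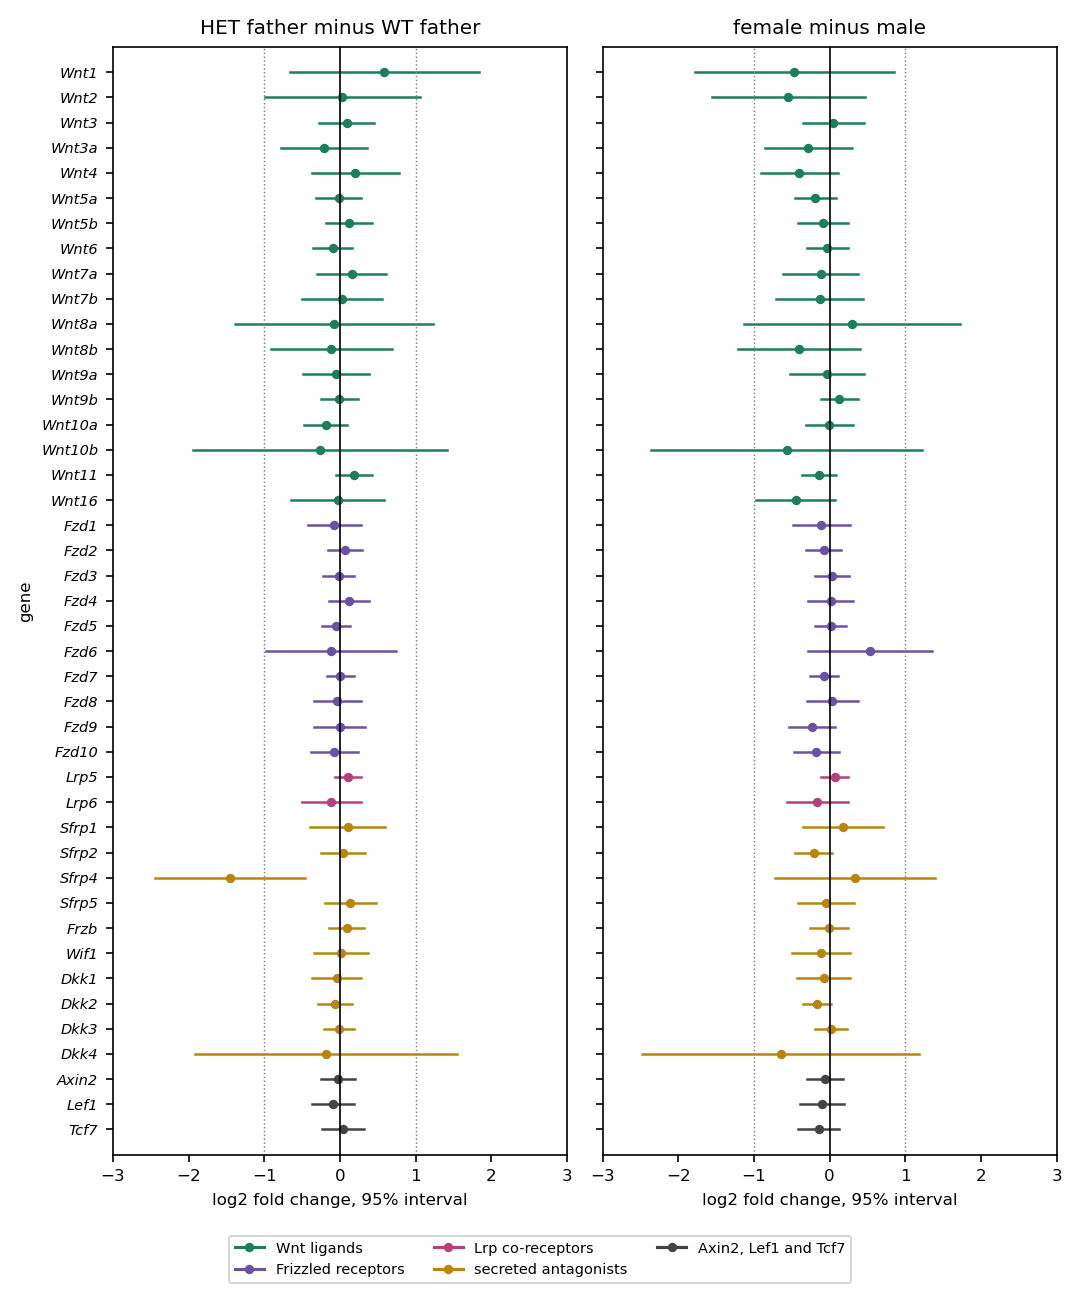
Log2 fold change of each of the 43 genes tested (points) with its 95% interval from limma (lines), between fathers on the left and between sexes on the right, coloured by class. Dotted lines mark 2-fold. Sfrp4 is the gene whose interval between fathers lies away from 0 (-2.45 to -0.47), and all intervals between sexes include 0.

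Sfrp4, a secreted Frizzled-like protein that binds Wnt ligands, was the gene that differed most between fathers. It measured -2.59, -2.06, -3.28 and -2.63 with wild-type fathers and -4.41, -3.23, -5.04 and -3.71 with heterozygous fathers. Of the embryos of heterozygous fathers, 3 lay below all 4 of wild-type fathers, and the groups overlapped only because heterozygous father 2 was just above wild-type father 3. The log2 fold change was -1.46 (standard error 0.42, 95% interval -2.45 to -0.47), or 2.75-fold lower, with an unadjusted p of 0.00983 and an adjusted p of 1 (limma), so it did not pass. Among all probes, 0.218% were at least 2-fold lower at an unadjusted p under 0.05. An exact permutation test of the difference in means gave a two-sided p of 0.0571, where 0.0286 is the smallest that 4 against 4 can give. The probe was well above background on all 4 arrays with wild-type fathers and on 3 of 4 with heterozygous fathers. The change kept its sign with each embryo left out, between -1.14 and -1.75, and was -1.13 (unadjusted p = 0.0325, adjusted p = 0.718, limma) without the 2 embryos that stand apart in receptor probes. With quantile normalization it was -1.76 with an unadjusted p of 0.0584, and with normexp -0.79, and the groups did not overlap under either of these or with arrays aligned on medians.

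Markers of decidua and trophoblast were set beside Sfrp4. Prl8a2, a prolactin-family hormone of the decidua, measured 2.21, 3.14, 1.80 and 2.56 with wild-type fathers and 0.97, 0.53, -2.38 and 0.77 with heterozygous fathers. Its log2 fold change was -2.46 (standard error 0.75, unadjusted p = 0.0126, adjusted p = 1, limma). The groups did not overlap, and heterozygous father 3 was the lowest for Prl8a2 as for Sfrp4. Prl3d1, a placental lactogen of trophoblast giant cells, was also lowest there (-2.76, against -0.57 to 1.06 elsewhere). Over the 4 of 5 list genes detected on all arrays (Prl8a2, Prl3d1, Prl3b1 and Gcm1), the mean difference from the gene's own mean ran from 0.24 to 0.78 with wild-type fathers and from -1.45 to 0.19 with heterozygous fathers, while Tpbpa, a marker of the spongiotrophoblast, was not well above background on any array. Prl3b1 and Gcm1 had log2 fold changes of 0.01 and -0.07. They were not low in heterozygous father 3, where they lay 0.03 and 0.30 above their means, so its list mean of -1.45 came from Prl8a2 and Prl3d1. The part of this tissue in the Sfrp4 difference was not tested.

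**Figure D3:**
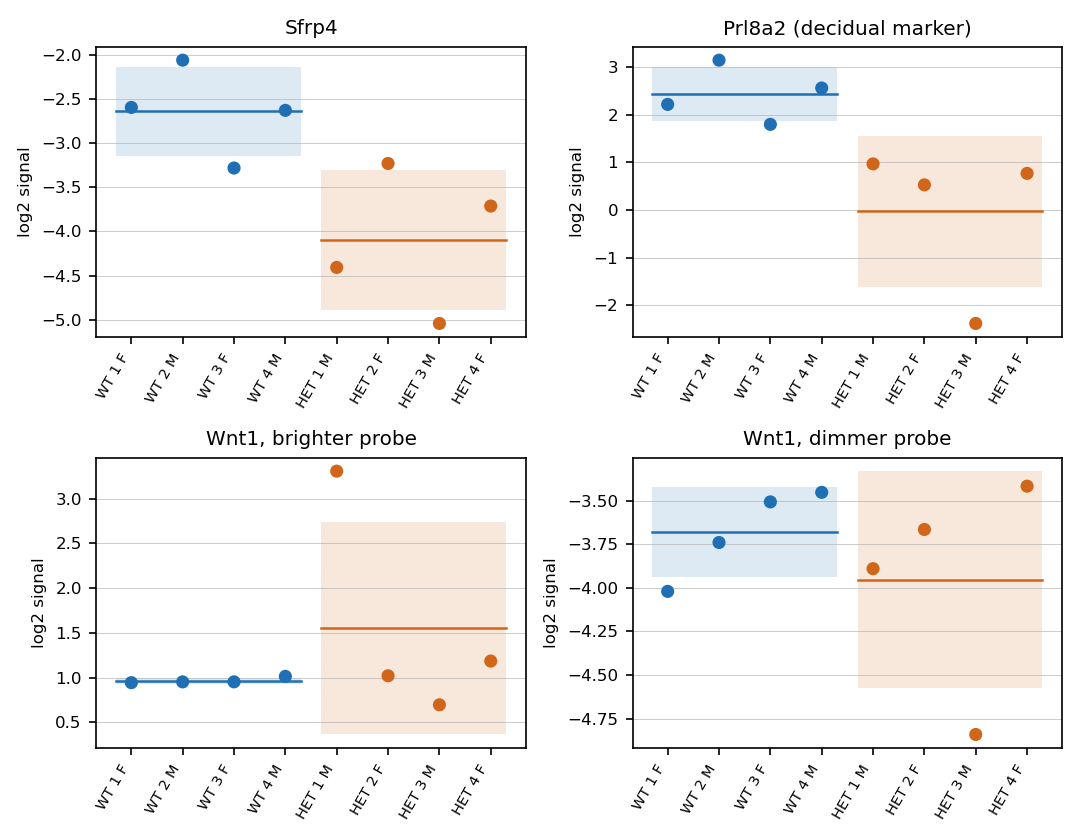
Log2 signal in each embryo (points, blue with wild-type fathers and orange with heterozygous fathers) with the group mean (line) and SD (band, n = 4) for Sfrp4, the decidual marker Prl8a2 and the brighter and dimmer probe of Wnt1. Sfrp4 and Prl8a2 are both lowest in heterozygous father 3, and the high Wnt1 value of heterozygous father 1 (3.31) appears on the brighter probe and not on the dimmer one (-3.89).

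Of the 10 antagonists, 5 were higher and 5 lower, and outside Sfrp4 their log2 fold changes ran from -0.18 for Dkk4 to 0.14 for Sfrp5. Sfrp5, a marker of the foregut endoderm, measured 2.31, 2.18, 2.37 and 2.69 with wild-type fathers and 2.41, 2.30, 2.63 and 2.75 with heterozygous fathers (interval -0.20 to 0.47). Dkk1, the antagonist needed for head formation, measured 0.95, 0.75, 0.65 and 1.09 and then 0.70, 0.58, 0.98 and 1.01, with an interval of -0.37 to 0.28. The groups overlapped for both genes. Sfrp1 varied most among the antagonists detected on all arrays (SD 0.31), with its highest value, 1.31, in heterozygous father 2 and its lowest, 0.28, in wild-type father 1. Dkk4 had the widest interval, -1.92 to 1.55, and was not well above background on 3 of the 4 arrays with heterozygous fathers.

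Axin2, Lef1 and Tcf7 are the readout of the pathway here, and none had an unadjusted p under 0.05 between fathers. Axin2, the negative-feedback scaffold, measured 0.64, 0.64, 0.76 and 0.98 with wild-type fathers and 0.72, 0.63, 0.75 and 0.82 with heterozygous fathers. The difference was -0.027 (standard error 0.10, interval -0.25 to 0.20, unadjusted p = 0.788, adjusted p = 1, limma), which lies within 1.5-fold in both directions on this probe. The second Axin2 probe, dimmer but well above background on all 8 arrays, gave -0.34. Its interval of -1.13 to 0.45 reached past 2-fold, so the narrow bound rests on the brighter probe. Lef1, a nuclear partner of beta-catenin, measured 2.23, 2.07, 2.15 and 2.52 and then 2.07, 2.03, 2.32 and 2.18, a difference of -0.09 (standard error 0.12, interval -0.37 to 0.19). Tcf7, its relative, measured 0.42, 0.50, 0.53 and 0.82 and then 0.57, 0.39, 0.75 and 0.71, a difference of 0.037 (standard error 0.12, interval -0.24 to 0.31). The direction of these small differences turned when single embryos were left out, and for Tcf7 also with arrays aligned on medians (-0.058). The second Tcf7 probe went the other way (-0.30, unadjusted p = 0.0438, adjusted p = 1, limma), the 1 second probe of any member with an unadjusted p under 0.05.

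Variation among the embryos was summarised by the SD. The median SD over the 8 embryos was 0.184 for the 38 genes detected on all arrays and 0.181 for all 27580 probes detected so, and 20 of the 38 genes lay above the latter. The 5 most variable genes were Wnt1 (SD 0.84), Wnt8a (0.81), Wnt2 (0.63), Fzd6 (0.54) and Wnt8b (0.50), between the 91.9th and the 98.5th percentile of all probes. The others besides Fzd6 are ligands made in narrow domains of the embryo, Wnt1 and Wnt8b in the brain, Wnt8a at the posterior end and Wnt2 in the heart region.

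Wnt1, which marks the midbrain and the dorsal midline, measured 0.94, 0.95, 0.95 and 1.01 with wild-type fathers and 3.31, 1.02, 0.70 and 1.19 with heterozygous fathers. A single embryo, heterozygous father 1, stood 2.12 log2 units above the next, while the 4 embryos of wild-type fathers lay within an SD of 0.03. The difference between fathers, 0.59 (standard error 0.53, unadjusted p = 0.307, adjusted p = 1, limma), rested on that embryo and was 0.0015 without it. The second Wnt1 probe, well above background on 7 arrays, gave -4.02, -3.74, -3.51 and -3.45 and then -3.89, -3.66, -4.84 and -3.42. Heterozygous father 1 was in the middle of that range, so the 2 probes of the gene disagreed on this embryo. Over the 7 dorsal neural tube markers its mean difference from the genes' own means was -0.154, against -0.225 to 0.15 in the other embryos. Of these markers Gdf7, a roof plate signal, was lowest in this embryo (-4.71, against -4.13 to -2.63 elsewhere), 0.87 below its mean. Msx1 lay 0.11 above its mean there, and the other markers lay 0.01 to 0.16 below theirs. En2, a midbrain and hindbrain gene on the list of Wnt targets, was highest there, 0.26 above its mean, against 0.23 in wild-type father 1. Most of that list did not follow En2. Its mean difference over 21 genes was -0.168 in this embryo, the lowest of all, against -0.124 to 0.155 in the other embryos. Gbx2 of the same list lay 0.18 below its mean there.

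Wnt8a, a ligand of the posterior primitive streak, measured -3.28, -3.32, -2.57 and -1.81 with wild-type fathers and -3.90, -3.21, -2.70 and -1.49 with heterozygous fathers. It was highest in embryo 4 of each group, lowest in heterozygous father 1, and differed between fathers by -0.08 (standard error 0.56, unadjusted p = 0.892, adjusted p = 1, limma). Wnt2, made near the developing heart, measured -1.49, -2.27, -2.96 and -0.98 and then -1.96, -1.92, -1.34 and -2.36, a difference of 0.032 (standard error 0.44, unadjusted p = 0.943, adjusted p = 1, limma). Wild-type father 4 was the highest embryo for Wnt2 and wild-type father 3 the lowest. Wnt8b, a forebrain ligand, measured -2.07, -2.47, -2.14 and -2.44 and then -2.002, -2.67, -1.64 and -3.28, a difference of -0.12 (standard error 0.34, unadjusted p = 0.741, adjusted p = 1, limma). The second Wnt8b probe, well above background on 7 arrays, gave -0.715 (interval -1.60 to 0.17). It was highest in wild-type father 1, where the brighter probe was highest in heterozygous father 3.

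Axin2, Lef1 and Tcf7 were each highest in wild-type father 4, by 0.24, 0.32 and 0.23 above their means, and each lowest in heterozygous father 2. Both Axin2 probes had their highest value in wild-type father 4, but the second was lowest in heterozygous father 1 (-3.47). The second Tcf7 probe was highest in wild-type father 3 (-2.59) and lowest in heterozygous father 3 (-3.21). Over the 38 genes detected on all arrays, wild-type father 4 was the highest embryo for 10 (26.3%, against 13.3% of all probes) and the lowest for 0 (against 10.9%), and the 10 were Wnt2, Fzd1, Fzd2, Fzd3, Fzd10, Wif1, Dkk1, Axin2, Lef1 and Tcf7. Heterozygous father 4 was the highest for 7 genes (18.4%, against 7.09% of all probes) and the lowest for 9 (23.7%, against 10.7%), and 6 of those 9 were ligands (Wnt6, Wnt7a, Wnt7b, Wnt8b, Wnt9a and Wnt10a). Its array had a median local background of 133, against 30 to 51 on the others, and the fewest probes well above background, 29204. The part of that array in these values was not tested. Wild-type father 4 and heterozygous father 4 were the top pair for Wnt8a, Sfrp5, Frzb, Dkk1, Dkk3 and Axin2. They were also the top pair for T, Tbx6, Cdx1, Sp5, Nkd1, Lgr5 and Gbx2, 7 of 21 genes listed as Wnt targets, the first 3 being regulators of posterior mesoderm and axis. Over the tail bud list they were the top pair for 2 of 8 genes, T and Tbx6. Heterozygous father 4 was the lowest embryo for Nkx1-2 of that list (0.38 below its mean) and lay 0.10 below the mean for Fgf8. The share of all probes with this top pair was not counted. Wild-type father 4 was in addition lowest in primitive red cell genes (mean difference -1.02 over 6 genes, against -0.04 to 0.42 in the other 7 embryos) and lowest in yolk sac endoderm markers (-0.305 over 8 genes, against -0.079 to 0.211). It was the highest embryo for markers of the embryo proper (0.183 over 12 genes) and of the tail bud (0.215 over 8 genes), and the part of tissue makeup in its Wnt readout was not tested.

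**Figure D4:**
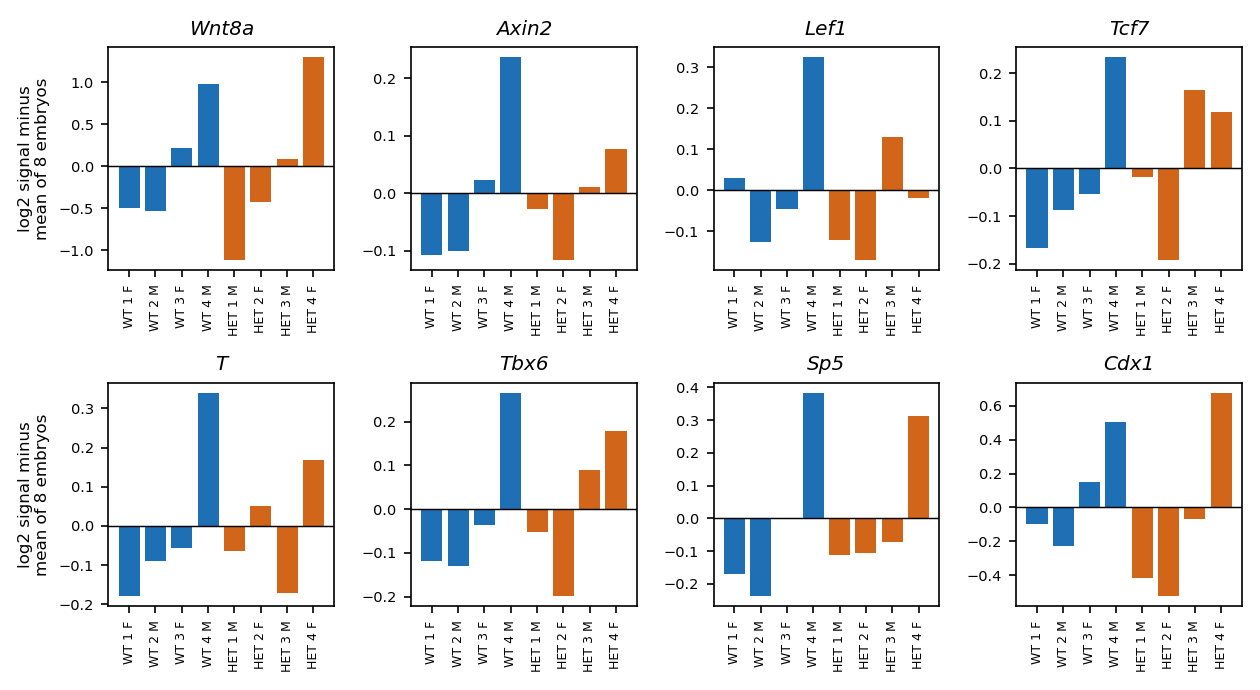
Log2 signal minus the mean of the 8 embryos for Wnt8a, Axin2, Lef1 and Tcf7 and for the posterior genes T, Tbx6, Sp5 and Cdx1, 1 bar per embryo, blue with wild-type fathers and orange with heterozygous fathers, each panel with its own scale. Wild-type father 4 is the highest embryo in every panel except Wnt8a and Cdx1, where heterozygous father 4 is. T, Tbx6, Sp5 and Cdx1 are among the 7 of 21 listed targets with these embryos as the top pair.

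Across the 8 embryos, the median of the Pearson correlations of the 703 pairs among these 38 genes was 0.0986, with 30 pairs over 0.8 and 7 under -0.8. Points share an array, so these values are a description only.

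The rest of the pathway was followed through 90 other genes in lists of modulators, membrane partners, cytoplasmic components, nuclear factors and targets. Of these, 83 were well above background on all arrays and 87 were tested. None was called between fathers or between sexes, and 3 had an unadjusted p under 0.05 between fathers, 1 higher and 2 lower, beside the 4.34% of all probes given above. The groups did not overlap at 4 of the 87 (Rspo4, Btrc, Csnk1d and Chd8), beside 3.15% of all probes. Neither count is read as a result about these genes, and the values of the 3 are given as a description. Btrc, the F-box protein that hands beta-catenin to the proteasome, measured -0.24, -0.09, -0.03 and -0.01 with wild-type fathers and 0.26, 0.10, 0.15 and 0.12 with heterozygous fathers (log2 fold change 0.25, standard error 0.08, unadjusted p = 0.0141, adjusted p = 1, limma). The groups did not overlap. Rspo4, an R-spondin that enhances Wnt signals at the receptor, measured -3.76, -4.32, -4.29 and -4.19 and then -5.24, -4.96, -4.88 and -4.49, lower in all 4 embryos of heterozygous fathers (log2 fold change -0.75, standard error 0.19, unadjusted p = 0.00465, adjusted p = 1, limma), though it was well above background on only 5 arrays. Dll1, a Notch ligand and Wnt target of the presomitic mesoderm, was the other (-0.25, unadjusted p = 0.0423, adjusted p = 1, limma). Genes of the destruction complex and its substrate had log2 fold changes of -0.065 for Ctnnb1 (beta-catenin), -0.09 for Apc, 0.29 for Axin1 and 0.044 for Gsk3b, none at an unadjusted p under 0.05. Of the 21 targets tested, 15 were lower and 6 higher with heterozygous fathers, with a median of -0.065, beside -0.00235 over all probes tested. Wild-type father 4 was the highest embryo over this list (mean difference 0.155, against -0.168 to 0.0904 in the others). The split without that embryo was not counted, and it is not read as a result about these genes.

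Between female and male embryos, with the father's genotype in the fit, 0 of the 43 genes were called, against 0.0332% of all probes, and 0 had an unadjusted p under 0.05 (limma), against 3.36%. The groups did not overlap at 1 gene, against 2.75% of all probes. It was Dkk2, an antagonist of the Lrp co-receptors, with -2.43, -2.40, -2.47 and -2.63 in females and -2.25, -2.38, -2.26 and -2.38 in males. All females were lower, with a difference of -0.17 (standard error 0.08, unadjusted p = 0.0752, adjusted p = 0.999, limma, exact permutation p = 0.0286), and the difference was 0.00072 with arrays aligned on medians. In females 12 genes were higher and 31 lower, which became 31 and 12 with arrays aligned on medians, a setting that moved the median of all probes from -0.027 to 0.139 and that of the pathway from -0.0855 to 0.081, so that the pathway stayed below all probes in both. It was 17 and 26 with quantile normalization, and 17 and 25 (of 42) without wild-type father 4. Without that embryo the pathway median was -0.011, above the -0.021 of all probes. 35 of the 43 intervals lay within 2-fold. Among the other pathway genes 5 of 87 had an unadjusted p under 0.05, 2 higher and 3 lower in females: Tle5 (0.36) and Ccnd1 (0.38), and Dvl2 (-0.22), Tcf7l1 (-0.26) and Rspo2 (-0.38), each with an adjusted p of 0.999 (limma).

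Whether the father's effect differed between the sexes was tested as an interaction. Of the 43 genes, 2 had an unadjusted p under 0.05, against 2.27% of all probes, and 0 passed after adjustment (smallest adjusted p = 0.995, limma). They were Wnt8b (interaction -1.51, unadjusted p = 0.00484) and Sfrp4 (1.85, unadjusted p = 0.0153). For Sfrp4, the females of heterozygous fathers measured -3.23 and -3.71 against -2.59 and -3.28 with wild-type fathers, and the males -4.41 and -5.04 against -2.06 and -2.63, so the gap was wider in males in these 2 pairs of embryos.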

How the data were processed

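Gene expression was measured in 8 embryos with one-colour Agilent arrays. The authors extracted the spots with Agilent Feature Extraction, named with version 11.0.1.1 in the submitters' processing notes. The deposited intensity of a spot has had its background and spatial trend removed, without scaling across arrays. A deposited matrix holds these intensity values rounded and served as an alternative.

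Each intensity was taken to log2 and shifted by its array's 75th percentile, without control spots and outliers, and repeated spots became 1 mean. Testing needed a mean above the dimmest 20% and a signal well above background on at least 4 arrays, which left 33096 probes. Groups were compared with limma 3.58.1 (R 4.3.3 with data.table). A call required at least 2-fold and an adjusted p under 0.01 (Benjamini-Hochberg, over all probes tested), and intervals are 95% and moderated. Embryos may share litters or sires, so p-values measure the spread among these 8, and the number of arrays limits the precision. Counts and figures used Python 3.11.15, pandas 2.3.3, numpy 2.4.6 and matplotlib 3.10.9. RefSeq accessions were present for 28685 probes, and 27235 of these found a symbol in RefSeq's GRCm38.p6 tables, used for names and upstream windows. Windows were not at hand for Wnt5a, Wnt7b, Wnt8a, Wnt10a, Fzd2, Fzd3, Fzd6, Fzd8, Lrp5, Lrp6, Sfrp1, Sfrp4, Dkk3 and Dkk4. Among the other listed genes, Tiki1 and Prl2c2 were not matched.

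The members, lists and tests were chosen with earlier results of these data known. Full values are given for members with an unadjusted p under 0.05 or groups that do not overlap, for Axin2, Lef1 and Tcf7, and for the 5 most variable. Other members given in full were chosen after their values were seen. The test was checked on simulated data. Alternatives were normexp on median spot signals (offset 50), other scaling, filters, covariates, blocks, weights and moderation, and each embryo left out.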

Additional observations from a re-analysis of the deposited data

Results flagged for a closer look

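In groups of 4 embryos, a value is listed here where its gap to the nearest other embryo, divided by the range of the group, is over the 95% critical value of Dixon. Of 86 groups examined (43 genes with each kind of father), 4 passed, and chance flags about 1 in 20. Wnt1 was high in wild-type father 4 (1.01 against 0.94 to 0.95, a ratio of 0.87), in a group with an SD of only 0.03. Wnt3 was low in heterozygous father 3 (-3.17 against -2.62 to -2.54, a ratio of 0.882). Fzd2 was high in heterozygous father 3 (4.36 against 4.16 to 4.18, a ratio of 0.888). Sfrp2 was low in heterozygous father 4 (1.61 against 2.03 to 2.08, a ratio of 0.908). The Wnt1 value of 3.31 in heterozygous father 1 did not pass, because the other embryos of its group spread from 0.70 to 1.19. A difference of the father's effect between sexes passed the adjusted threshold for 0 of the 43 genes (limma interaction), and 2 had an unadjusted p under 0.05.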

How the results depend on the processing

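No member was called in either comparison (limma) under any alternative run. Between fathers, 1 member had an unadjusted p under 0.05. That count was 2 with normexp (Sfrp4 and Frzb), 0 with quantile normalization, 0 with the filter on all 8 arrays, where Sfrp4 is not tested, and 1 to 2 with an embryo left out. Members whose groups do not overlap, 0, were 2 with normexp, 1 with arrays aligned on medians, 1 with quantile normalization, 0 to 2 with an embryo left out, and 2 without wild-type father 1 and heterozygous father 3, a setting chosen after seeing the data. The median was -0.11 with arrays aligned on medians and ran from -0.029 to 0.042 with embryos left out. Between sexes, members with an unadjusted p under 0.05, 0, were 2 with the replicate block (Fzd6 and Sfrp4), 3 with embryo codes as random blocks, 1 with array weights, 0 to 2 with an embryo left out and 2 without those 2 embryos. Groups that do not overlap, 1, were 0 with normexp, aligned medians or quantile normalization, 1 to 4 with an embryo left out and 6 without the 2. The median, -0.0855, was 0.081 with aligned medians and ran from -0.146 to -0.011 with an embryo left out, the last without wild-type father 4. Between fathers the replicate block left the count at 1. Same-numbered embryos did not deviate together over the probes tested (correlations -0.587 to -0.0452), and the main fit did not pair them. With 4 embryos per group this cannot tell whether the numbers stand for something shared, such as a litter.

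Some small differences between fathers turned sign, none of them called. With embryos left out, Axin2 ran from -0.075 to 0.048, Lef1 from -0.15 to 0.0024, Tcf7 from -0.062 to 0.12, Wnt8a from -0.52 to 0.28, Wnt2 from -0.31 to 0.35, Fzd6 from -0.31 to 0.18 and Wnt8b from -0.37 to 0.18. Tcf7 was also -0.028 with normexp, -0.058 with aligned medians, -0.13 as the mean of its probes and -0.014 with array weights. Wnt8a was 0.034 with codes as blocks. Wnt2 was -0.037 with normexp, -0.062 with aligned medians, -0.016 with quantile normalization and -0.060 with codes as blocks. Dkk2 between sexes was 0.00072 with aligned medians. The cause was not tested. Signal near background limits Wnt3a, Wnt10b, Wnt16, Sfrp4 and Dkk4.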

Other observations

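The genes with 2 probes show how far a single probe carries. Of these 10 genes, the sign of the difference between fathers was shared by both probes in 5 and opposite in 5, the highest embryo was the same in 2, and the dimmer probe had the larger SD in 7. For Fzd2 the brighter probe had an SD of 0.12 over the 8 embryos and the dimmer one 0.83.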
